A study of Mus musculus with 20 samples.

Results

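The ribosome footprints of all ribosomes in the lysate were compared between E14 cells, a pluripotent mouse embryonic stem cell line, that carried Rpl22-3xHA and E14 cells carrying 3xFLAG-Rpl10a or Rps25-3xFLAG. By their titles these total libraries were made without the immunoprecipitation that the study used elsewhere to capture tagged ribosomes, and they stand for the baseline set of translated mRNAs in each line. The labels of the Rpl22 total libraries nevertheless list an anti-HA antibody. The comparison was defined by the library labels: 2 total libraries of the Rpl22-3xHA line (Rpl22 line) were set against 2 of the 3xFLAG-Rpl10a line and 2 of the Rps25-3xFLAG line (together the FLAG lines), 6 of the 20 libraries of the series. It covered the 7605 transcripts listed for all 3 lines. The other 14 libraries were 6 footprint libraries of captured ribosomes and 8 RNA-seq libraries of polysome fractions from wild-type cells given an siRNA.

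Each line carried its tag on 1 allele of the ribosomal protein gene at its own locus. All cells received 100 µg/ml cycloheximide, which holds ribosomes on the mRNA, for 1 min before harvest, and total ribosomes were pelleted through a 1 M sucrose cushion after RNase A/T1 digestion. The protocols differed between the arms. Lysis buffer for the FLAG lines listed 0.1 mg/ml heparin, and that for the Rpl22 line listed none. For the FLAG lines the submitters' processing notes list cutadapt and Bowtie2, and for the Rpl22 line they also list STAR. The Rpl22 libraries were registered next to the RNA-seq libraries, in a separate run of sample numbers from the FLAG libraries. Line, tag, buffer, processing and any batch that goes with registration changed together, so their effects cannot be told apart. The labels give no clone number or culture for a library, so the p-values reflect no more than the spread among these libraries, and that spread may be technical.

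Ribosome profiling sequences the mRNA fragments that ribosomes shield from nuclease, so the footprint density of a transcript reflects both how much of its mRNA is present and how densely ribosomes occupy it. RPL22 and RPL10A are proteins of the large ribosomal subunit and RPS25 is a protein of the small subunit. RPL22 also binds RNA outside the ribosome, and in mice it has a paralogue, RPL22-like 1. Transcripts carried UCSC identifiers, and 0 of them could be paired with a gene name in the reference tables used here. Stem cell markers, the tagged genes and pathway lists could thus not be looked up and were not analysed here, and identifiers stand in for gene names.

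The Rpl22 line stood apart from both FLAG lines in these libraries. On log2(RPKM + 1) values, where RPKM is the read number per kilobase of transcript and per unit of library size, the 8 pairs of an Rpl22 library with a FLAG library had Pearson correlations across transcripts of 0.928 to 0.950. The 4 pairs between the FLAG lines had 0.980 to 0.989, and the 3 replicate pairs 0.988 to 0.995. The lowest correlations with the Rpl22 libraries, 0.928 and 0.934, were those of the first Rpl10a library, which also correlated least with the Rps25 libraries. The within-line SD of the log2 values was 0.131 in the Rpl22 line, 0.215 in the Rpl10a line and 0.144 in the Rps25 line. Within the 7605 transcripts, footprints were about as concentrated in all 6 libraries. The 100 most abundant of them held 32.6% and 32.7% of the RPKM summed over the 7605 in the Rpl22 libraries, and 31.4% to 32.5% in the FLAG libraries. Transcripts outside the 7605 were left out of these shares. Which transcripts made up that list did differ. The 100 highest by line mean in the Rpl22 line shared 74 with those of the Rpl10a line and 79 with those of the Rps25 line, and the lists of the Rpl10a and Rps25 lines shared 88.

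Differences were widespread. In the Rpl22 line, 1730 transcripts were higher and 1942 lower than in the FLAG lines, which is 22.7% and 25.5% of those tested and 48.3% in all (limma, Benjamini-Hochberg adjusted p below 0.05, 2 against 4 libraries). The FLAG libraries were fitted as 1 group, so the spread in this test includes the difference between those lines. The 2 Rpl22 libraries lay outside the range of the 4 FLAG libraries for 64.5% of transcripts, above it for 30.8% and below it for 33.7%. Most of the differences were moderate in size: the transcripts called higher had a median log2 difference of 0.64 and those called lower of −0.65. Past 2-fold were 20.5% of the transcripts called higher and 18.4% of those called lower. Without the first Rpl22 library 1981 transcripts were called and without the second 2190, in fits where the Rpl22 line is 1 library assumed to vary like the FLAG libraries. The SD of the log2 differences across transcripts barely moved, with 0.62 and 0.64 in these fits and 0.62 with both libraries. Without the first Rpl10a library 4050 were called. A fit of the 3 line means, 1 line against 2, called 2368, and a test against a 1.5-fold change called 559. Which direction held more calls depended on the scaling, as aligned library medians gave 1905 higher and 1779 lower.

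**Figure D1:**
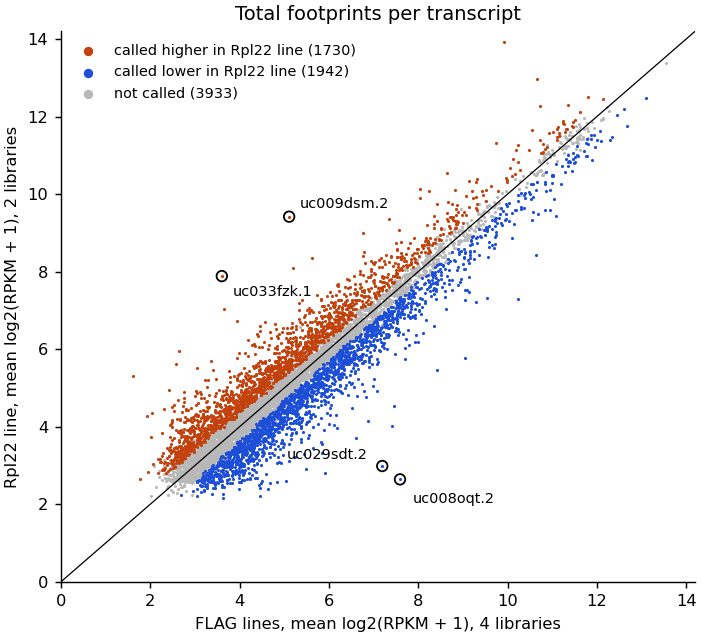
Mean log2(RPKM + 1) of each of 7605 transcripts in the Rpl22 line (vertical axis, 2 libraries) against the FLAG lines (horizontal axis, 4 libraries), coloured by call, with the diagonal marking equal levels and the 4 named transcripts ringed. The 1730 transcripts called higher and the 1942 called lower form bands on both sides of the diagonal over the whole range of levels.

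The difference between the FLAG lines, which were handled with 1 protocol and registered together, serves as a yardstick. The SD of the log2 difference across transcripts was 0.62 for the Rpl22 line minus the FLAG lines and 0.27 for the Rpl10a line minus the Rps25 line. More than 2-fold apart were 716 transcripts for the Rpl22 line against the FLAG lines, and 41 for the Rpl10a line against the Rps25 line. At more than 4-fold the numbers were 60 and 2, and at more than 8-fold 12 and 0. In a fit of the 6 libraries as 3 lines, which applies 1 spread to all of them, 3900 transcripts were called between the Rpl22 and Rpl10a lines (51.3%), 3700 between the Rpl22 and Rps25 lines (48.7%) and 75 between the Rpl10a and Rps25 lines (0.986%). The first pair of these comparisons shares the Rpl22 libraries. With the FLAG libraries alone, limma called 23 between the Rpl10a and Rps25 lines (0.302%), 9 higher (0.118%) and 14 lower (0.184%) in the Rpl10a line, with 1142 at an unadjusted p below 0.05. Without any one of the 4 libraries, which leaves a single library in a group, limma called 0, with 315 to 2199 at an unadjusted p below 0.05.

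**Figure D2:**
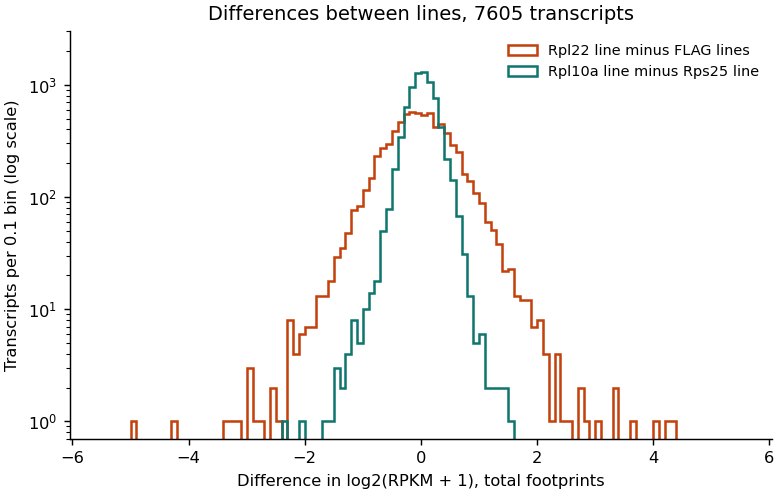
Number of transcripts (vertical axis, log scale) per 0.1 of log2 difference in total footprints (horizontal axis), for the Rpl22 line minus the FLAG lines and for the Rpl10a line minus the Rps25 line. The first distribution is broader, with an SD of 0.62 against 0.27, and reaches past 4 on the log2 scale on both sides.

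At the level of lines, the Rpl22 mean was above both FLAG line means for 3155 transcripts, below both for 3428 and between them for 1022. For 62.9% of transcripts the Rpl22 line was farther from its nearer FLAG line than the FLAG lines were from each other. The median absolute log2 difference was 0.38 between the Rpl22 and Rpl10a lines, 0.36 between the Rpl22 and Rps25 lines and 0.16 between the Rpl10a and Rps25 lines.

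Calls were spread over the abundance range and tilted with it. Transcripts were put in 5 bands of equal size by mean level. In the lowest band, from 3.40 to 11.3 RPKM, 319 were higher and 208 lower in the Rpl22 line, and 34.6% were called. In the highest band, from 101 to 11587 RPKM, 345 were higher and 523 lower, and 57.1% were called. The median log2 difference was 0.06 in the lowest band and −0.10 in the highest. The SD of the differences changed little, with 0.53 in the lowest band and 0.62 to 0.66 in the others, while the median SE fell from band to band, 0.163 in the lowest and 0.105 in the highest. Precision thus moved with the share called, and its part in that share was not tested. Among the 100 most abundant transcripts 21 were called higher and 28 lower, close to the shares of 22.7% and 25.5% over all tested. More than 2-fold higher were 3 of these 100 and more than 2-fold lower 0, against 356 and 360 of all 7605.

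**Figure D3:**
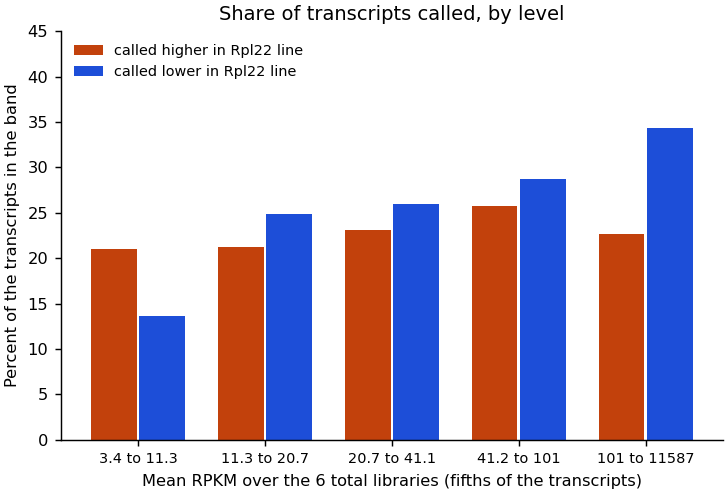
Percent of the transcripts in each of 5 bands of mean RPKM (horizontal axis, 1521 transcripts each) that were called higher or lower in the Rpl22 line against the FLAG lines (vertical axis). Called higher were 21.0% in the lowest band and 22.7% in the highest, and called lower 13.7% in the lowest and 34.4% in the highest. The mean RPKM weighs the FLAG lines more than the Rpl22 line, so the tilt may in part follow from the banding.

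The transcripts that differed by more than 4-fold were 29 higher and 31 lower in the Rpl22 line, and all 60 were called. Only transcripts listed for all 3 lines could be counted. Large differences that left a transcript unlisted in 1 arm are thus missing from these numbers. The higher ones had a median of 74.0 RPKM in the Rpl22 line and 11.2 RPKM in the FLAG lines, and the lower ones 11.2 RPKM in the Rpl22 line and 76.9 RPKM in the FLAG lines. Each of the 60 was more than 2-fold apart in the same direction from the Rpl10a line and from the Rps25 line. This largely follows from the cut, as only 2 of all 7605 transcripts were more than 4-fold apart between the FLAG lines. Between the FLAG lines, 28 of the 29 and 29 of the 31 were less than 2-fold apart. Over all transcripts tested, 41 (0.539%) were more than 2-fold apart between these lines.

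The 2 most raised transcripts at or above the median level, 28.9 RPKM, were uc009dsm.2 and uc033fzk.1. These and the 2 most lowered were picked among called transcripts whose Rpl22 and FLAG total libraries did not overlap, so their separation in the total libraries follows from the choice. Which genes they come from was not given here. uc009dsm.2 had 712 and 654 RPKM in the Rpl22 libraries, against 24.5 and 33.2 RPKM in the Rpl10a libraries and 41.5 and 37.2 RPKM in the Rps25 libraries. The Rpl22 libraries were many-fold above every FLAG library, and within the FLAG lines the first Rpl10a library was lowest. It averaged 683 ± 40.9 RPKM in the Rpl22 line (SD, n = 2) and 34.1 ± 7.24 RPKM in the FLAG lines (SD, n = 4), a 20.0-fold ratio of means. The log2 difference was 4.31 (SE 0.18, limma adjusted p = 3.23e-06). By line mean it ranked 293 of 7605 in the Rpl22 line, 3815 in the Rpl10a line and 3084 in the Rps25 line.

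uc033fzk.1 had 215 and 258 RPKM in the Rpl22 libraries, against 9.7 and 11.9 RPKM in the Rpl10a libraries and 10.9 and 12.2 RPKM in the Rps25 libraries. The FLAG libraries lay close together, and both Rpl22 libraries were far above them. Its means were 236 ± 30.4 RPKM in the Rpl22 line (SD, n = 2) and 11.2 ± 1.13 RPKM in the FLAG lines (SD, n = 4), with a log2 difference of 4.28 (SE 0.13, limma adjusted p = 5.83e-07). Its difference between the Rpl10a and Rps25 lines was −0.09 (limma adjusted p = 0.816).

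In the other direction, uc008oqt.2 had 5.7 and 4.8 RPKM in the Rpl22 libraries, against 138 and 140 RPKM in the Rpl10a libraries and 267 and 263 RPKM in the Rps25 libraries. Both FLAG lines were far above the Rpl22 line, and they also differed from each other. The Rpl22 values were near 5 RPKM, a level that every listed transcript reached in some library of its line. The log2 difference of the Rpl22 line from the FLAG lines was −4.95 (SE 0.29, limma adjusted p = 1.19e-05), on means of 5.25 ± 0.636 RPKM (SD, n = 2) and 202 ± 72.5 RPKM (SD, n = 4). The log2 difference of the Rpl10a line from the Rps25 line was −0.92 (SE 0.09, limma adjusted p = 0.0276).

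uc029sdt.2 had 6.2 and 7.7 RPKM in the Rpl22 libraries, against 205 and 233 RPKM in the Rpl10a libraries and 102 and 91.8 RPKM in the Rps25 libraries. All 3 lines were separate, with the Rpl22 line lowest, again near 5 RPKM, and the Rpl10a line highest. The Rpl22 line differed from the FLAG lines by −4.21 on the log2 scale (SE 0.36, limma adjusted p = 6.34e-05), on means of 6.95 ± 1.06 RPKM (SD, n = 2) and 158 ± 71.5 RPKM (SD, n = 4). The Rpl10a line exceeded the Rps25 line by 1.17 on that scale (SE 0.11, limma adjusted p = 0.0276).

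**Figure D4:**
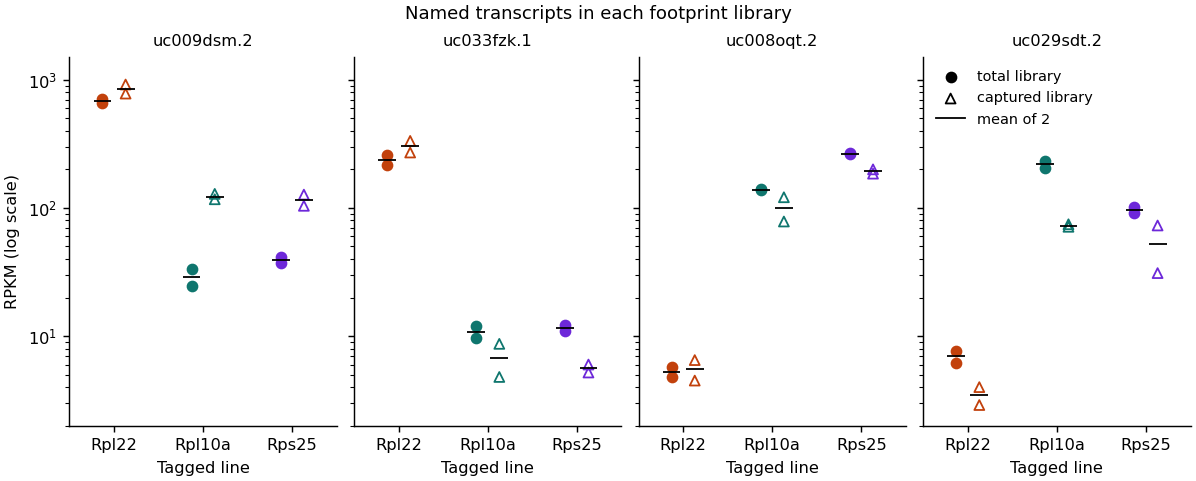
RPKM (vertical axis, log scale) of the 4 named transcripts in each of the 12 footprint libraries, by tagged line, with filled circles for total libraries, open triangles for captured libraries and bars for the mean of 2. The total libraries lie apart by choice of the transcripts, and in every panel the captured Rpl22 libraries also lie apart from all FLAG libraries, above them for uc009dsm.2 and uc033fzk.1 and below them for uc008oqt.2 and uc029sdt.2.

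The captured libraries allowed the same contrast in a second set of libraries from the same lines. The labels do not say whether a total and a captured library came from the same culture or lysate, so the captured set may not be an independent repeat. The RPL22 capture used an anti-HA antibody where the FLAG captures used anti-FLAG beads. In them, 971 transcripts were higher and 1226 lower in the Rpl22 line (12.8% and 16.1%, 28.9% in all, limma adjusted p below 0.05). Without the first RPL22 capture library 586 were called and without the second 849, again with 1 library assumed to vary like the FLAG ones, and line means gave 692. Aligned library medians turned the more frequent direction here too, with 1149 higher and 1036 lower. The log2 differences of total and captured libraries correlated across the 7605 transcripts with r = 0.79 (Spearman rho 0.73), a description, as transcripts are not independent.

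Of the 1730 transcripts called higher in the total libraries, 1571 (90.8%) were also above 0 in the captured libraries and 744 (43.0%) were called higher there. Of the 1942 called lower, 1755 (90.4%) were below 0 and 899 (46.3%) were called lower. Over all tested transcripts, which include the called ones, the direction was shared by 76.3%, and over the 3933 not called by 63.0%. In the captured libraries, 12.8% of all tested were called higher and 16.1% lower. Seen from the other side, the 744 and 899 were 76.6% and 73.3% of the transcripts called higher and lower in the captured libraries. Of all tested, 22.7% were called higher and 25.5% lower in the total libraries. Calls in opposite directions numbered 18. The larger the difference in the total libraries, the more often it was called again in the same direction: 26.1% of called transcripts with a log2 difference of up to 0.5, 42.5% of those between 0.5 and 1, 76.4% of those between 1 and 2 and 96.7% of those above 2. Over all tested transcripts, called or not in the total libraries, this share was 26.9%, so the smallest differences did not exceed it. Among transcripts not called in the total libraries it was 10.3%.

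**Figure D5:**
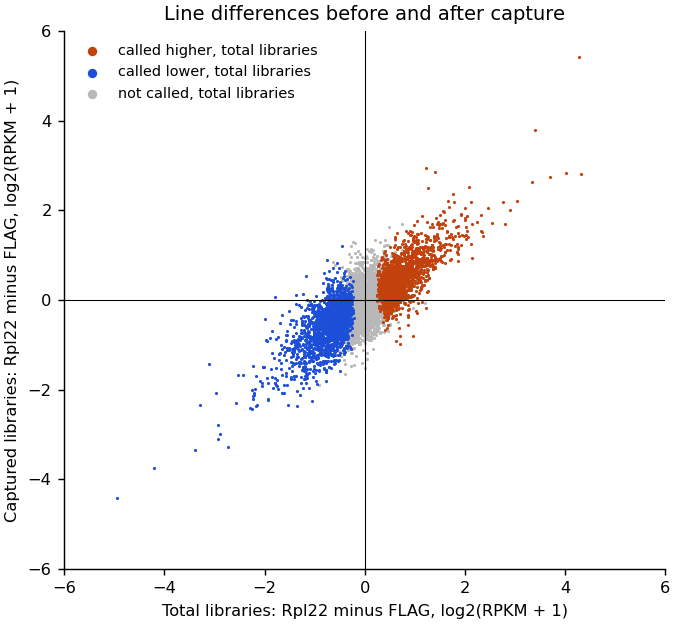
Log2 difference of the Rpl22 line from the FLAG lines in captured libraries (vertical axis) against total libraries (horizontal axis) for 7605 transcripts, coloured by the call in the total libraries. The points follow a rising line (r = 0.79), and the 60 transcripts past 4-fold in the total libraries all keep their side of 0 in the captured ones.

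The named transcripts showed the contrast after capture as well. uc009dsm.2 had 917 and 779 RPKM in the RPL22 captures, against 117 and 129 RPKM in the RPL10A captures and 127 and 104 RPKM in the RPS25 captures, a log2 difference of 2.82 (SE 0.13, limma adjusted p = 2.73e-06). uc033fzk.1 had 270 and 333 RPKM in the RPL22 captures, against 8.7 and 4.8 RPKM in the RPL10A captures and 5.2 and 6.0 RPKM in the RPS25 captures, a log2 difference of 5.42 (SE 0.23, limma adjusted p = 2.19e-06). Both stayed many-fold higher in the Rpl22 line. uc008oqt.2 differed by −4.42 (SE 0.34, limma adjusted p = 6.66e-05) and uc029sdt.2 by −3.76 (SE 0.33, limma adjusted p = 0.000147).

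Whether the contrast itself differed between total and captured libraries was tested as an interaction, chosen after seeing the values and with all 12 libraries taken as separate samples. With the FLAG libraries of each kind as 1 group, 0 transcripts were called (limma, smallest adjusted p = 0.0630) and 1311 had an unadjusted p below 0.05. With each line given its own level and the FLAG lines averaged, 249 were called, 114 with a higher log2 difference in the total libraries and 135 with a lower one.

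The antibody listed for the Rpl22 total libraries bears on how they relate to the captures of that line. Total and captured libraries correlated with r of 0.989 to 0.995 in the Rpl22 line, 0.959 to 0.980 in the Rpl10a line and 0.975 to 0.981 in the Rps25 line (4 pairs each). Whether the Rpl22 total libraries were all ribosomes was not tested by any value used here.

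RNA-seq of polysome fractions from wild-type cells given control siRNA gave a separate readout of the same transcripts. The transcripts called higher in the Rpl22 line had a median log2 difference of heavy (at least 4 ribosomes) minus light fractions of 0.01, with quartiles of −0.43 and 0.58 over 1644 measured. The transcripts called lower had a median of 0.00 and quartiles of −0.52 and 0.62 over 1857 measured. All 7263 measured transcripts had a median of 0.00 and quartiles of −0.48 and 0.56, and 49.9% of them were above 0. Among transcripts called with a difference of more than 2-fold, the median was 0.03 over 335 measured for the higher ones, of which 51.9% were above 0, and −0.14 over 339 measured for the lower ones, of which 43.7% were above 0. Past 4-fold the medians were 0.12 and −0.10, over 28 measured in each list. Past 2-fold the quartiles were −0.40 and 0.70 for the higher ones and −0.69 and 0.50 for the lower ones. All these medians lay between the quartiles of all measured transcripts, but a shifted list could do so too. Whether any list was shifted was not tested. Across transcripts, the footprint difference and the heavy minus light difference had r = 0.04 (Spearman rho 0.02). The median RNA level over the 4 libraries, in the deposited RPM values, which are not scaled by length, was 50.2 for the transcripts called higher, 65.1 for those called lower and 52.6 for all. For the transcripts past 4-fold it was 20.2 for the higher ones and 69.8 for the lower ones, over 28 measured in each list.

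In these wild-type cells uc009dsm.2 had deposited RPM values of 353 and 429 in heavy and 138 and 139 in light fractions. uc033fzk.1 had 20.7 and 29.0 in heavy and 9.7 and 16.4 in light fractions. uc008oqt.2, which was near 5 RPKM in the Rpl22 footprints, had 216 and 232 in heavy and 187 and 210 in light fractions. Its RNA was thus readily measured in cells without a tag, as was that of uc009dsm.2. uc029sdt.2 was not listed in the RNA tables.

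The transcripts listed for 1 arm alone extend the comparison beyond the 7605. The Rpl22 table listed 304 transcripts that neither FLAG table held, and both FLAG tables listed 485 that the Rpl22 table did not hold. Most were low, with a median of 6.40 RPKM over the Rpl22 total libraries for the first list and 6.45 RPKM over the FLAG total libraries for the second, close to the lowest values that the tables admit. Every listed transcript reached at least 5 RPKM in 1 or more of the 4 total and captured libraries of its line. Higher levels occurred on both sides: 31 of the 304 and 14 of the 485 averaged at least 20 RPKM. At least 100 RPKM was reached by 7 of the 304, the highest with 6372 and 5733 RPKM in the 2 libraries, and by 0 of the 485, whose highest averaged 71.5 RPKM. The 304 held 1.14% and 1.05% of the RPKM summed over all listed transcripts in the Rpl22 libraries, and the 485 held 0.334% to 0.368% of that sum in the FLAG libraries. The 7605 held 94.1% and 94.4% in the Rpl22 libraries, 99.1% in both Rpl10a libraries and 96.4% in both Rps25 libraries. The rest of the Rpl22 signal was in transcripts that only 1 of the FLAG tables also listed, and these were not compared. The RNA tables listed 0 of the 304 and 441 of the 485, against 7263 of the 7605. Another version number of the same identifier was listed in the opposite table for 0 of either list. A transcript that a table does not list has no value here, so no fold change was computed for these.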

How the data were processed

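Per the file headers, the authors deposited RPKM values per transcript and library for the footprint libraries, to 1 decimal. For the RNA-seq libraries the authors deposited a signal that the file headers call RPM, although some libraries sum to more than that unit allows. Tools listed in the submitters' processing notes were cutadapt and Bowtie2 for every library, and STAR as well for those of the Rpl22 line and of RNA-seq, on mm10. Counts and transcript lengths were not used here, so depth is unknown and no interval for counting error is given.

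Values were tested as log2(RPKM + 1), so a fold change understates that of low transcripts, with limma 3.58.1 in R 4.3.3 (moderated variances, variance trend, two-sided, adjusted over all 7605 transcripts). The test script was tested on simulated data with no gaps between lines and few changed transcripts. That setting differs from these data, so it checks the code and not the calls made here. Each library was normalized on its own, so differences between lines compare whole procedures. Named transcripts were the 2 called ones per direction with the largest difference, among those whose groups did not overlap and whose level was not below the median. The comparison, members and lists were chosen with earlier results of these data known. Replicates shared at most 1.34% identical values. Same-numbered replicates were not taken as pairs. Alternatives covered the pseudocount, a low-value filter, scaling, the variance model, the grouping, a replicate block and single libraries. Marker lists, which need gene names, and the Rpl10a siRNA libraries were not used here.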

Additional observations from a re-analysis of the deposited data

Results flagged for a closer look

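uc029sdt.2 was marked because 1 of the 4 FLAG captured libraries lay far from the others: the second RPS25 capture had 31.0 RPKM, against 71.2 to 74.5 RPKM in the other 3, so that its gap to the nearest library was 0.924 of the whole range. Chance marks about 1 in 20 groups of 4 values drawn from 1 population. These 4 libraries came from both FLAG lines, so that rate need not hold here.

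2 named transcripts were marked because the difference between the Rpl22 line and the FLAG lines was not the same before and after capture. In a limma fit of 12 libraries with a level for each line, the contrast of uc009dsm.2 was larger in total than in captured libraries by 1.49 on the log2 scale (adjusted p = 0.0250). That of uc033fzk.1 was smaller in total than in captured libraries, by −1.14 (adjusted p = 0.0462). With the FLAG libraries of each kind as 1 group, neither passed (limma adjusted p = 0.0630 and 0.0740).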

How the results depend on the processing

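For the total libraries, 10 of the 12 alternatives other than leaving out a library kept the count of calls within 1.5 times of 3672. Line means gave 2368 and a test against a 1.5-fold change 559. Leaving out single libraries gave 1981 to 4050. For the captured libraries, 2197 calls became 692 with line means and 260 against a 1.5-fold change, and 586 to 2355 without single libraries. Equal library totals gave 859 higher and 1383 lower there, and aligned medians 1149 and 1036. Between the Rpl10a and Rps25 lines, 23 calls became 65 with a replicate block and 0 to 0 without single libraries. The interaction of line with kind of library had 249 calls in the fit with 6 groups, added after seeing the data. The 4 named transcripts kept direction and call under all 18 alternatives, with log2 differences of 4.16 to 4.41, 3.90 to 4.41, −5.17 to −4.27 and −4.43 to −3.66 in the order described.

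Replicate deviations of same-numbered libraries correlated with r = −0.34, 0.14 and −0.27 between the lines, and the labels do not link a number with a day or culture. A replicate block called 3237 transcripts in the total and 1882 in the captured libraries. The alternative planned for whole counts was not run. Depth is unknown, so how far low values are limited by read number was not tested.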
